A study of Mus musculus with 3 samples.

Results

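The exonic peaks were the CTCFL ChIP-sequencing peaks whose center, the midpoint of the listed interval, fell in an exon of a protein-coding transcript, away from the starts and ends of such transcripts. A center was kept when it lay outside -2 kb to +1 kb of every protein-coding transcription start site (TSS) and more than 1 kb from every protein-coding transcript end. Of 7436 CTCFL peaks in the list, 264 (3.55%, with a 95% Wilson interval of 3.15 to 4.0%) met this rule, in 253 genes. The list holds more peaks than the study reported as CTCFL sites, so its shares are not those of the published sites. For comparison, 1949 peaks had their center in an intron, 2344 in a promoter (-2 kb to +1 kb of a TSS), 349 within 1 kb of a transcript end and 2530 in none of these. Intervals on shares and densities cover counting error only. They treat peaks as independent, although the peaks come from 1 library.

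Mouse ES cells with a ROSA26-rtTA allele were transfected in the study with a TRE-mCTCFL-V5-GFP construct, and clones were selected with G418. The group analyzed was induced with doxycycline for 3 days, sorted for GFP and precipitated with V5 antibody. The control group carried the same transgene and received the same antibody, but was not induced and not sorted. All cells were grown with LIF on gelatin. Each group was 1 library, which leaves the spread between replicates unknown. The list holds the intervals of the peaks of the induced cells on mm9, without a height or a read number, so the depth behind a peak is unknown. It reports nothing on the non-induced cells and cannot show markers of the cell type.

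CTCFL is a paralog of CTCF that is normally found in the male germ line, and the 2 proteins share a central domain of zinc fingers with which they contact DNA. CTCF is known as an organizer of chromatin loops and as an insulator protein. Exons outside of promoters are read by RNA polymerase in expressed genes, and their coding part is constrained by the protein that it encodes, so that a binding site there lies in sequence under a second constraint.

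The consensus CCNNNAGGNGGCGC, made of the tallest letters of the CTCFL motif of the study, has 14 positions, of which 10 are fixed, counted from 1 at the 5' end. The consensus was searched on both strands. The study drew its motif from CTCFL sites of the same ChIP-sequencing experiment. Matches in these peaks, and their shares by class, are thus not independent of the motif. The sequences below are the exact matches that lay nearest to the center of an exonic peak, all of them in coding exons. They are shown on the strand of the match on mm9, with the match in capitals.
Cd22 (chr7:31658287-31658316, plus strand): ttcctgatCCTCTAGGGGGCGCccatcctt
Bsn (chr9:108008588-108008617, minus strand): ggccccgcCCCGCAGGGGGCGCtcttcctc
Rin1 (chr19:5053969-5053998, minus strand): gtgggtggCCGGCAGGCGGCGCtgttccca
Fam184b (chr5:45930909-45930938, minus strand): gaccagcaCCTGCAGGAGGCGCtgcagctg
St7 (chr6:17784677-17784706, minus strand): aacccctcCCAGAAGGGGGCGCaagtggct
Ddn (chr15:98635871-98635900, plus strand): ctctcattCCGCCAGGAGGCGCctggggcg
Rinl (chr7:29581887-29581916, plus strand): gccccgcgCCGCAAGGTGGCGCtgttgctg
Trim11 (chr11:58795537-58795566, minus strand): ctcctctgCCAACAGGCGGCGCagcctctc

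The next sequences are the coding exonic peaks with an exact match that were short enough to be shown whole. They are given on the strand of the gene. The capitals mark the match, which reads in the direction of the gene in Fam184b and against it in St7 and Chd2. Chd2 encodes a chromatin remodeling ATPase, and its peak lay at exon 38 of 39.
Fam184b (chr5:45930811-45931045, minus strand): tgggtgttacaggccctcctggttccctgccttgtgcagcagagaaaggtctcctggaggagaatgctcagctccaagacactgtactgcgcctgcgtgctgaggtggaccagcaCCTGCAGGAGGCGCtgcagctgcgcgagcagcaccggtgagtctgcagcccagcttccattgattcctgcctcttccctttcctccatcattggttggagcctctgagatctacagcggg
St7 (chr6:17784588-17784803, plus strand): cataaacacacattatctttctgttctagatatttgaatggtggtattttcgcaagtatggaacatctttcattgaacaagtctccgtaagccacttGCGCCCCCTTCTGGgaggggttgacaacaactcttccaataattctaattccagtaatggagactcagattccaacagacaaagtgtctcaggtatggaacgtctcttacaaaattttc
Chd2 (chr7:80580637-80580913, minus strand): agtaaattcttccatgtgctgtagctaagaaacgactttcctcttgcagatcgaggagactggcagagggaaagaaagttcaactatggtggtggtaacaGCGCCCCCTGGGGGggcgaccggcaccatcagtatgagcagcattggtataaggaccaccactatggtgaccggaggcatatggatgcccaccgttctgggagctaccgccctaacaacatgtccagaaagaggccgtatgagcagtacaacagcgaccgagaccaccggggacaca

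The last sequence is exon 4 of Ctcfl with 60 bases on either side. The capitals mark the exon. It is shown because a CTCFL peak lay over the whole exon, as described at the end, although no match with up to 2 mismatches was found in that peak.
Ctcfl exon 4 (chr2:172938984-172939274, minus strand): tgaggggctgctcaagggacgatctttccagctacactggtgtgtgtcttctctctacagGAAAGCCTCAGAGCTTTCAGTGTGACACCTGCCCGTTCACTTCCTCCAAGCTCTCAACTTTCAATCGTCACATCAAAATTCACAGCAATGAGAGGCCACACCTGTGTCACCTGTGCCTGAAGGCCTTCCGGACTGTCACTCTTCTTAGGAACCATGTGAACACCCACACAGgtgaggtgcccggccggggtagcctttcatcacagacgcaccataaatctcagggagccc

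The exonic peaks were not all in internal exons. The exon that held the center was internal in every transcript for 170 peaks. It was the last exon for 74 peaks, the first for 9 and the only exon for 7, and for the other 4 it differed between transcripts. The center lay in coding sequence in 217 peaks, in a 3' UTR in 41 and in a 5' UTR in 6. In 40 peaks (15.2%) the center lay in the promoter interval of a transcript not annotated as protein-coding. Such a transcript can belong to a protein-coding gene. The share was 8.72% of intronic and 45.4% of promoter peaks. None of the centers lay in exons of more than 1 gene. All 36-base windows were unique in the genome in 237 of the peaks, and in 8 under 90% of the windows were unique.

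Peaks lay close to both sides of each border of the rule. Just inside the downstream border of a TSS were the peaks in Foxd3, a transcription factor of ES cells, at 1001 bp and in Ppp1r3g at 1011 bp, with widths of 640 and 258 bp. A peak in Ctcfl, 785 bp wide, lay at 1011 bp as well. Just outside of it were those in Ascl2 at 1000 bp (540 bp wide) and in Inhbe at 958 bp (498 bp). Upstream of a TSS, the nearest inside were at 2178 bp in Apobr and 2200 bp in Gpr162, and the nearest outside at 1808 bp in Kdm6b and 1806 bp in Col23a1. At transcript ends, Pdzd7 at 1005 bp and Gm7233 at 1013 bp were inside, whereas Wnt6 at 994 bp and Ccr10 at 993 bp were outside.

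Per length, exons held more CTCFL peaks than introns. There were 31.8 Mb of exonic sequence that met the rule, with 8.29 peaks per Mb (95% Poisson interval 7.32 to 9.35), against 2.27 per Mb in introns (2.17 to 2.37). The exonic density was 3.65 times the intronic one (exact conditional interval 3.20 to 4.15) and 5.0 times the intergenic one (4.39 to 5.68). It was 1.34 times the density at transcript ends (1.13 to 1.57). Promoters held 27.2 peaks per Mb, 3.28 times the exonic density (2.89 to 3.74). The lengths counted all known bases, including repeated sequence in which reads cannot be placed uniquely, and no correction was made for it. When narrow peaks, those below the median of all peaks, were left out, the exonic density was 5.06 times the intronic one.

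Within exons, coding sequence held 9.36 peaks per Mb (8.15 to 10.7) and 3' UTRs 5.05 (3.62 to 6.85). The 5' UTRs held 11.2 per Mb, with an interval from 4.12 to 24.5 because the 6 peaks rest on 0.534 Mb. Exons of 300 to under 1000 bp had 16.9 peaks per Mb (12 to 23.3), whereas exons under 150 bp had 5.93 (4.45 to 7.73) and exons of 3000 bp or more had 6.85 (5.06 to 9.05). First exons that reached past the promoter interval held 9 peaks in only 0.281 Mb, or 32.1 per Mb (14.7 to 60.9). Internal exons held 8.26 per Mb (7.08 to 9.59). Along the gene, 103 of 264 peaks lay in the last of 5 equal parts of the gene body, taken over all protein-coding transcripts of the gene, where 44.0% of the eligible exonic sequence lay as well. The density was 11.7 per Mb in the first of these (7.47 to 17.3) and 7.33 in the last (5.99 to 8.90), with overlapping intervals.

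**Figure D1:**
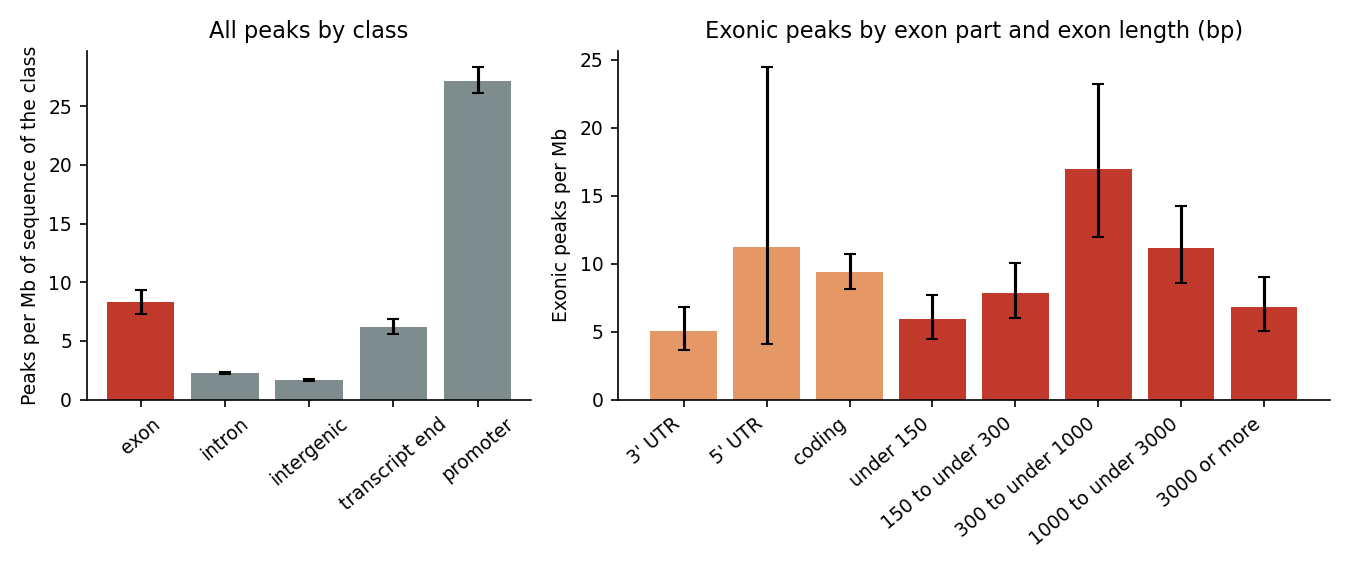
Peaks per Mb of sequence with 95% Poisson intervals as bars, for all classes of peaks on the left and for exonic peaks by exon part and exon length on the right. The exonic density (8.29 per Mb) lies above the intronic (2.27) and below the promoter density (27.2), and of the 5 groups of exon length it is highest at 300 to under 1000 bp (16.9).

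Many exonic peaks reached beyond their exon. The median exonic peak was 489.5 bp wide (quartiles 383.5 and 615.5 bp), the narrowest 194 bp and the widest 1462 bp. The exons that held the centers had a median length of 500.5 bp and ranged from 27 to 9961 bp. In 118 peaks the whole exon lay within the peak, in 83 the whole peak lay within the exon, and 181 peaks crossed a border of the exon. Exons made up 67.9% of the summed width of the exonic peaks. A width of at least 454 bp, the median of all peaks, was found in 58.7% of exonic peaks (52.7 to 64.5%) and in 42.3% of intronic peaks (two-sided Fisher's exact test, adjusted p = 2.08e-06 over 13 tests). The share was 65.4% in promoter peaks and 59.0% at transcript ends. Neither differed from exonic peaks past the threshold (exact test, adjusted p = 0.0508 and 1). Against promoters the difference passed it without the Ctcfl peaks (exact test, adjusted p = 0.0415) and with peaks of at least 90% unique windows (0.0385).

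The widest exonic peaks are given here for those with at least 90% unique windows, which leaves out the peak in Tchh (1150 bp, 85.8% unique windows). The widest lay in exon 5 of Eef2, the elongation factor of translation, and was 1462 bp wide. Its exon of 179 bp took up 12.2% of it, so that most of the peak lay in neighboring sequence. The peak in the first exon of Adcy5, an adenylyl cyclase, was 1358 bp wide and lay wholly in an exon of 2359 bp. Next came Cntn2, a neuronal adhesion protein (1241 bp, exon 16 of 23), Kcns1, a potassium channel subunit (1121 bp, exon 3 of 4), and Pvrl4, the adhesion protein nectin-4 (1110 bp, exon 3 of 10). Klf5, a transcription factor of ES cells, had a peak of 1016 bp in exon 2 of 4. Gpr124, an adhesion receptor, had one of 992 bp, and Gfap, an intermediate filament of astrocytes, one of 976 bp. Those in Aars, an alanyl-tRNA synthetase, and Pbxip1 lay in 3' UTRs (936 and 840 bp), and those in Mon1a and Fam59b in coding exons (909 and 877 bp). Of these 12 widest, Adcy5 and Pbxip1 held an exact match of the consensus.

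A match to the consensus was more frequent in exonic than in intronic peaks. With up to 1 mismatch, a match lay in the central 200 bp in 130 of 264 exonic peaks, or 49.2% (43.3 to 55.2%), and in 31.2% of intronic peaks (exact test, adjusted p = 6.05e-08). In promoter peaks the share was 40.9% (exact test, adjusted p = 0.0165) and at transcript ends 43.8% (exact test, adjusted p = 0.207). With up to 2 mismatches the shares of exonic and promoter peaks were 77.3 and 79.2%, and the direction turned (exact test, adjusted p = 0.512). In the whole peak rather than its central part, exonic peaks held a match more often than peaks at transcript ends (63.6 against 54.4%, exact test, adjusted p = 0.0367). Over eligible stretches of at least 200 bp, tiled in windows of that length, the same letters lay in 1.33% of 80314 windows in exons. They were found in 0.342% of windows in introns and in 1.8% of those in promoters. In these windows, in or outside of peaks, they were thus also more common in exons than in introns, by a larger ratio than in peaks. The exact tests on peaks took no account of this. Shorter stretches, such as those of short exons, were not tiled. Coding exonic peaks held a match in their central part in 52.1% (45.4 to 58.6%) and those in 3' UTRs in 31.7% (19.6 to 47.0%), a difference that was not tested. Over whole peaks, the best match was exact in 53 exonic peaks, had 1 mismatch in 115 and 2 in 63, and was absent in 33.

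**Figure D2:**
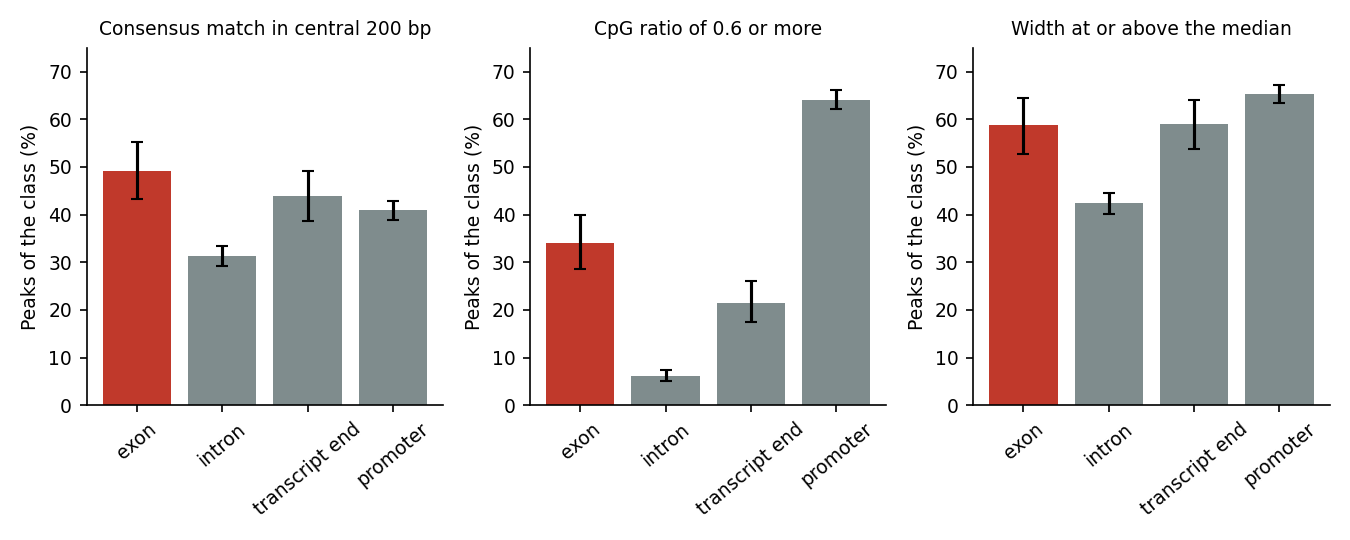
Shares of peaks, in percent with 95% Wilson intervals as bars, with a consensus match of up to 1 mismatch in the central 200 bp, with a CpG ratio of at least 0.6 and with a width at or above the median, for 4 classes of peaks. Exonic peaks have the highest share with a match (49.2%), although the difference from transcript ends did not pass the test and that from promoters turned with up to 2 mismatches, and they lie between introns (6.16%) and promoters (64.1%) in the share with a high CpG ratio (34.1%).

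Matches were found near the center of the peaks, which can be in part built in because the motif came from CTCFL sites of this experiment. The best match of up to 1 mismatch was at a median distance of 39 bp from the center in 168 exonic peaks, and 60.1% lay within 50 bp, compared with 42 bp and 57.2% in 727 intronic peaks and 50 bp and 50.2% in 1256 promoter peaks. Within 100 bp lay 81.0% of these matches in exonic, 87.9% in intronic and 78.2% in promoter peaks. In Cd22, an inhibitory receptor of B cells, and in Bsn, a scaffold protein of the synapse, the exact match lay at the center itself. In Rin1, a Ras effector, it was 1 bp away. In Fam184b and St7 it was 4 bp away, in Ddn, a protein of dendrites, and Rinl 6 bp, and in Trim11, a ubiquitin ligase, 7 bp. Within 17 bp lay the exact matches in Gprin1, the kinesin genes Kif21b and Kif19a, the kinesin light chain Klc2, the zinc finger gene Zfp219, Pik3ca, the catalytic subunit of PI3-kinase, and Hook2, a linker to microtubules. Dst, a linker of the cytoskeleton, Vgf, a neuropeptide precursor, and Rimbp3 had theirs at 25 bp. Ky, at 21 bp in a 3' UTR, and A930004D18Rik, at 22 bp in a 5' UTR, were the others of the 20 nearest.

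**Figure D3:**
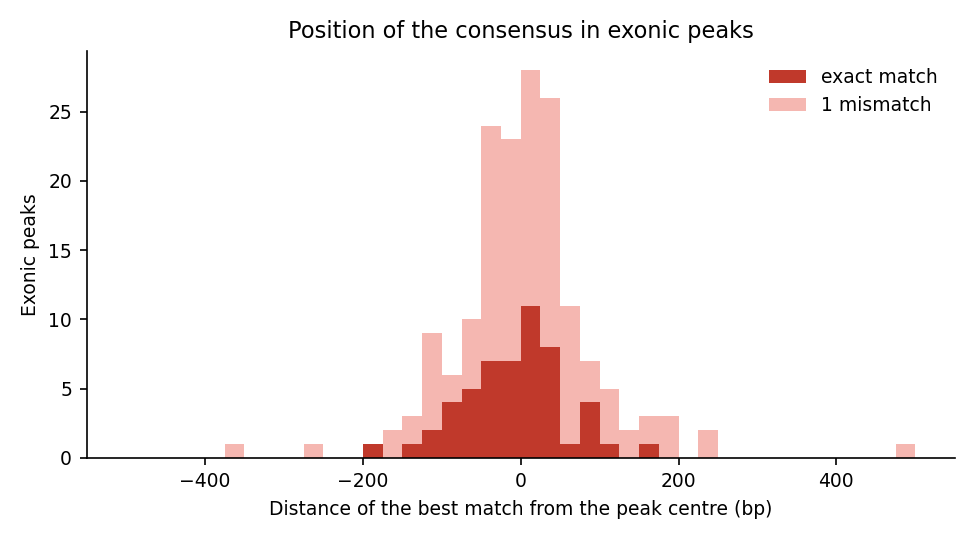
Number of exonic peaks by the distance of their best match from the peak center in bp, along the genome, in bins of 25 bp, for exact matches (53 peaks) and matches with 1 mismatch (115 peaks). Of the 168 matches, 101 lie within 50 bp of the center.

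Most of these matches lay in an exon, which is in part built in because the rule put the center of each peak in an exon. Of 168 matches, 140 (83.3%) lay wholly in an exon, 8 over an exon border and 20 in an intron. For comparison, 67.9% of the summed width of all exonic peaks was exonic. Of the 140 in an exon, 58 read in the direction of the gene and 82 against it. Among the 115 matches with 1 mismatch, the most frequent changes were G8A in 14, C1G in 12 and C12A in 11. Position 8 carried the mismatch in 12.2% of these matches in exonic peaks, 21.5% in intronic and 14.8% in promoter peaks. Of the free positions, C at position 5 was found in 66.0% of 53 exact matches in exonic peaks, 47.9% of 217 in intronic and 56.8% of 329 in promoter peaks. These shares are descriptions without a test.

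Seen from the genome, an exact consensus site in an exon was more often in a peak than one in an intron. The genome held 3202 exact sites, of which 974 (30.4%) lay wholly in a peak. Exons had 147 such sites, or 4.62 per Mb, and introns 880, or 1.03 per Mb. In exons 54 of 147 lay in a peak, 36.7% (29.4 to 44.8%), against 24.8% in introns (22.0 to 27.7%, exact test, adjusted p = 0.00714) and 49.3% of 672 in promoters (45.5 to 53.0%, exact test, adjusted p = 0.0115). When a site had to lie within 100 bp of a peak center, the difference from promoters was not past the threshold (33.3 against 39.4%, exact test, adjusted p = 0.207).

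Exonic sites in peaks had higher GC and CpG values around them than those outside. The 54 sites in peaks had a median GC content of 62% in the 200 bp around them and the 93 outside 57%. A ratio of observed to expected CpG dinucleotides of at least 0.6 was found around 19 of the 54 sites in peaks (35.2%) and 12 of the 93 outside (12.9%). Of exonic sites with a ratio under 0.3, 14 of 41 were in a peak, with 0.3 to 0.6 21 of 75, with 0.6 to 0.9 14 of 22 and with 0.9 or more 5 of 9. For intronic sites the same counts were 101 of 469, 100 of 353, 16 of 53 and 1 of 5. For promoter sites they were 26 of 68, 70 of 152, 152 of 283 and 83 of 169. These splits were not tested. All 54 exonic sites in peaks, and 88 of the 93 outside, had at least 90% unique windows around them.

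**Figure D4:**
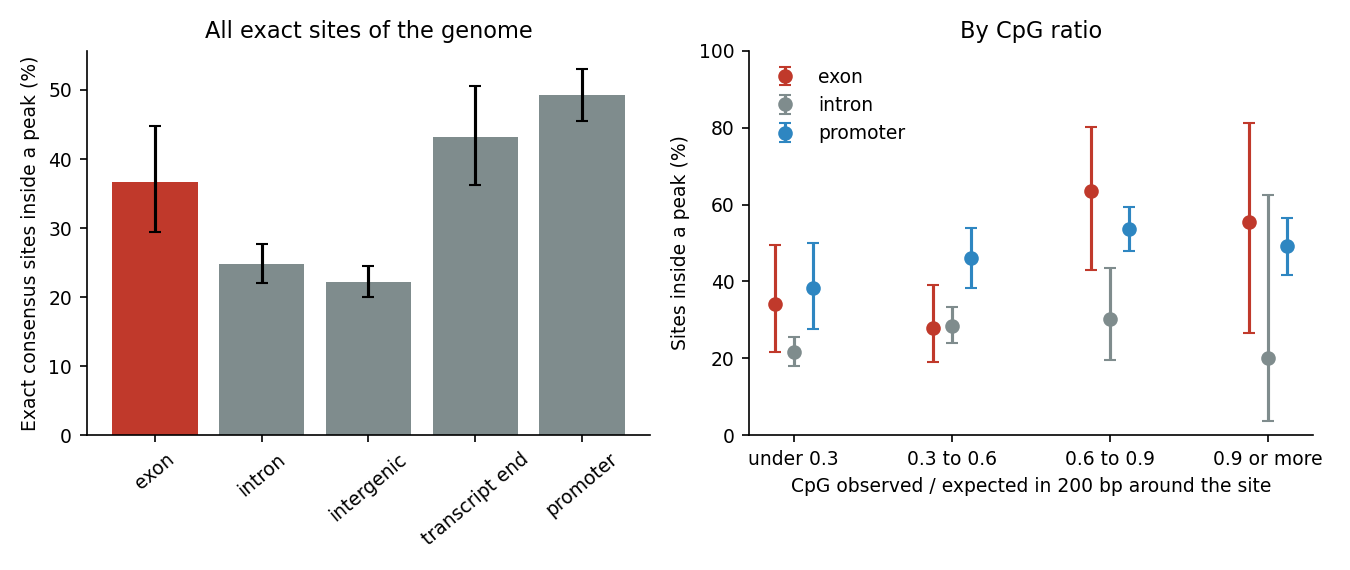
Share of exact consensus sites that lie wholly in a CTCFL peak, in percent with 95% Wilson intervals as bars, by the class of the site on the left and by the ratio of observed to expected CpG around exonic, intronic and promoter sites on the right. The exonic share (36.7%) lies between those of introns (24.8%) and promoters (49.3%). On the right, the exonic point at a ratio of 0.6 to 0.9 stands for 14 of 22 sites, and the exonic and intronic points at 0.9 or more rest on 9 and 5 sites.

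The direction of exact sites relative to the gene did not differ past the threshold. Of the exact exonic sites with 1 gene strand, 21 of 53 in peaks (39.6%) and 48 of 93 outside (51.6%) read with the gene (exact test, adjusted p = 0.207). With up to 1 mismatch the shares were 44.4% of 205 and 52.3% of 2133 (exact test, adjusted p = 0.0458). In coding sequence, 37 of the 49 exact sites that read with the gene began at the third position of a codon, and 13 of these were in a peak. Of the 61 that read against it, the match began, in the direction of the gene, at the third position in 32, of which 16 were in a peak.

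Exonic peaks were also richer in CpG than intronic peaks. The median GC content of their central 200 bp was 58.5% and the median CpG ratio 0.455, compared with 0.221 in introns and 0.710 in promoters. A ratio of at least 0.6 was found in 34.1% of exonic peaks (28.6 to 40%), in 6.16% of intronic peaks (exact test, adjusted p = 6.41e-33), in 64.1% of promoter peaks (exact test, adjusted p = 6.37e-20) and in 21.5% of peaks at transcript ends (exact test, adjusted p = 0.00168). Of the tiled windows, which left out stretches under 200 bp, 9.94% in exons, 2.20% in introns and 15.7% in promoters had such a ratio. In or outside of peaks, it was thus also more common in exons than in introns. The tests on peaks took no account of this. Coding exonic peaks had such a ratio in 36.9% and those in 3' UTRs in 14.6%. The 90 exonic peaks with the higher ratio held a match in 61.1% and had a median width of 578.5 bp, and the other 174 held one in 43.1%, with a median width of 461 bp. In intronic peaks the shares with a match were 48.3 and 30.1%.

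Few genes of any of the 9 lists compared held an exonic peak. The lists were made by gene symbol and are not complete. Accn1, Nrp2, Smarcd3 and Dst, for instance, held an exonic peak but are in none of them. Of 17606 protein-coding genes with eligible exonic sequence, 253 (1.44%) held an exonic peak, and these had a median of 2311 eligible bases against 1229 in the others. Motor and cytoskeleton genes held one in 7 of 100 genes (3.43 to 13.7%): Dnahc1, Kif19a, Kif1b, Kif21b, Kif5a, Myh7b and Myo1e. Their eligible exons are long, with a median of 4762.5 bases against 1246 for all genes, and per length they held 15.5 peaks per Mb (6.68 to 30.5) against 8.27 for all genes. Ion channel genes with a Cacn, Kcn, Scn, Grin, Ryr or Trp symbol held one in 5 of 170 (Kcna1, Kcnj10, Kcnj9, Kcns1 and Trpm4). Axon guidance genes held one in 3 of 69, namely Robo3, Sema3f and Sema4f. Chromatin regulators held one in 3 of 137, which were Chd2, Mll1, a histone methyltransferase, and Ctcfl itself. The Notch and Wnt pathway list had Hey1, a Notch target, and Fzd7, a Wnt receptor, of 74 genes, and the cadherin superfamily Pcdh17 and Pcdh8 of 71. Of 397 C2H2 zinc finger genes with a Zfp, Zscan, Zkscan or Zbtb symbol, 3 held one (Zbtb39, Zbtb40 and Zfp219). Other zinc finger genes with an exonic peak, such as Sp6, Klf5 and Ctcfl, are not in this list. Of 44 collagen genes none held one, and of 77 germ cell genes only Ctcfl.

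Genes with an exonic peak and genes with an intronic peak only did not differ past the threshold in the share with a CTCFL peak at the promoter. Of the 253 genes with an exonic peak, 50 (19.8%) also had a peak in their promoter interval, against 267 of 1633 genes with an intronic peak only (16.4%, exact test, adjusted p = 0.207). The share over all protein-coding genes was not counted, so neither share can be set against it.

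In 9 genes there were 2 or more exonic peaks. Ctcfl had 4 and 8 genes had 2. In Sp6, a zinc finger factor, both peaks lay in the last exon, from 96882854 to 96883509 and from 96883515 to 96883797 on chromosome 11, each with a match of 1 mismatch. In Rimbp3 both lay in the single exon. Kif21b had an exact match in each of its peaks, in coding exon 20 and in the 3' UTR. Pvrl4 had peaks in exons 3 and 7, Spnb4, a spectrin of axons, in exons 16 and 31, and Gal3st3, a sulfotransferase, in exons 2 and 3. Epb4.1l5 and Tnfrsf1b, a receptor for tumor necrosis factor, each had a coding peak and one in the 3' UTR.

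The gene with the most exonic peaks was Ctcfl, which encodes the precipitated protein. The gene (ENSMUSG00000070495.4) lies on the minus strand of chromosome 2 from 172919110 to 172945026 and has 11 exons. Each of the 4 exonic peaks covered an exon in full. The peak at exon 2 (172943623 to 172944407, 785 bp) reached 107 and 139 bp beyond the exon on its 5' and 3' sides. Those at exon 4 (172938825 to 172939319, 495 bp), exon 8 (172931435 to 172931898, 464 bp) and exon 9 (172927300 to 172927666, 367 bp) reached between 83 and 219 bp beyond theirs. All of their 36-base windows were unique in the genome assembly. The center of the peak at exon 2 lay 1011 bp downstream of a TSS, close to the border of the promoter interval. It also lay in the promoter interval of a transcript not annotated as protein-coding. A peak at the promoter, from 172944714 to 172945586, covered exon 1, and a peak from 172922674 to 172923268 lay in an intron. Exons 3, 5, 6, 7, 10 and 11 had no peak. With 5 peak centers in its 25917 bp, the body of Ctcfl held 19.3 peaks per 100 kb. This was the highest value among the 24 genes with 4 or more peaks in the body, ahead of Bai1 with 5.46.

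The 4 exonic peaks of Ctcfl differed from the other peaks of the gene in whether they held the consensus. The promoter and the intronic peak each held an exact match, at 163 and 9 bp from the center. The peaks at exons 4 and 8 held no match with up to 2 mismatches, and those at exons 2 and 9 held one with 2 mismatches, 194 and 158 bp from the center. Of the 118 exonic peaks that covered a whole exon, 48 lacked a match with up to 1 mismatch. The cells also carried the mCTCFL transgene, and reads from the transgene and reads from the exons of the gene on chromosome 2 cannot be told apart in a list of peaks. Without the 4 peaks, 260 exonic peaks remained, the density was 3.59 times the intronic one, and the difference in the share with a match from intronic peaks was 18.8 percentage points (18 with them).

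**Figure D5:**
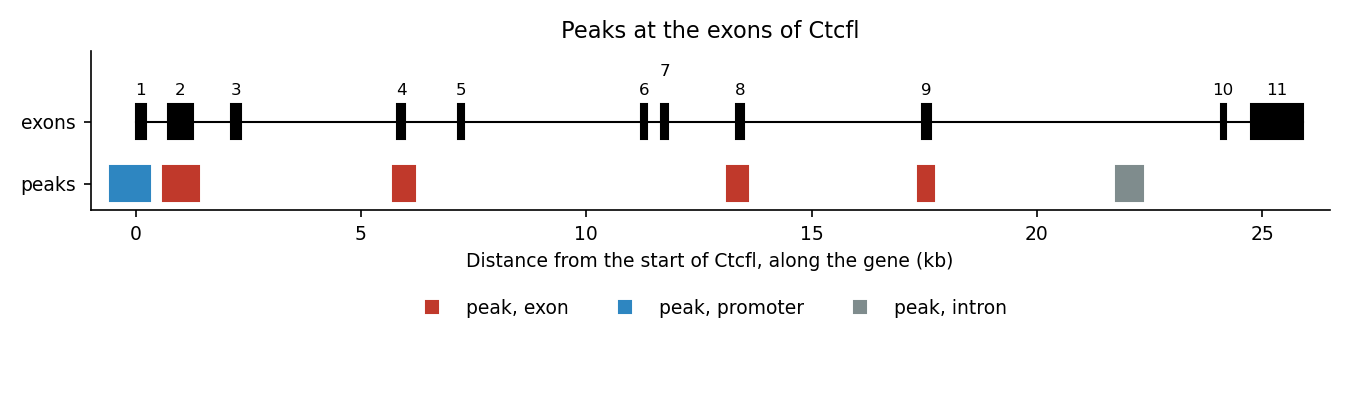
Map of Ctcfl, with its 11 exons (black) and the CTCFL peaks at the gene (colored by class), by distance from the start of the gene in kb along its direction. The 4 exonic peaks lie over exons 2, 4, 8 and 9, the promoter peak over exon 1, and the intronic peak between exons 9 and 10.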

How the data were processed

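CTCFL ChIP-sequencing was done in induced and non-induced ES cells, with 1 library each. The unit of the deposited values is a position: the authors' list holds each peak as an interval, start and end in bp on mm9, exported from a genome browser, and no other value per peak. Per the methods of the study, 36-bp reads were mapped with ELAND, and for the comparative analysis with BOWTIE to mm9, with peaks called by MACS at an fdr below 0.05. Which of these made the list, and whether the non-induced library was the control in that peak call, is not given in the sources used here. No value column was left unmapped. A library with a CTCF antibody was not analysed here.

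Peaks were classed by their center with the GENCODE M1 annotation on the NCBIM37 (mm9) genome, a promoter interval taking precedence over a transcript end, an exon and an intron, in this order. Sequence was read from the same genome, and the central window was 200 bp. Shares of peaks, sites or genes were compared with two-sided Fisher's exact tests (scipy 1.17.1), with Benjamini-Hochberg adjustment over 13 tests and a threshold of 0.05. Shares have Wilson intervals, densities exact Poisson intervals and their ratios exact conditional intervals, all at 95%. Windows of 36 bases were searched in the whole assembly to find repeated sequence. The steps were tested on simulated data. Python 3.11.15, numpy 2.4.6, pandas 2.3.3, numba 0.67.0 and matplotlib 3.10.9 were used.

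The members, the consensus and the 9 gene lists were chosen with earlier results of these data known. Named genes were the hosts of the 12 widest peaks with at least 90% unique windows, up to 20 peaks with an exact match nearest to the center, genes with 2 or more exonic peaks, the peaks next to the borders and the genes of the lists. Alternatives changed the exon set, the excluded intervals, the uniqueness and width limits, the mismatches, the window and the CpG limit.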

Additional observations from a re-analysis of the deposited data

How the results depend on the processing

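In 57 of 67 alternatives for 15 results neither direction nor call changed, or the count of exonic peaks stayed within 1.5 times (177 to 260) and the density ratio within its interval. Keeping peaks at or above the median width left 155 exonic peaks, with a density ratio to introns of 5.06. In percentage points of the exonic share minus the other, 3 directions turned: the exact match against transcript ends (-1.29), up to 2 mismatches against promoters (-1.95) and the upper quartile of width against transcript ends (1.90). Past the threshold came the width against promoters with unique windows (-7.03) and without the Ctcfl peaks (-6.90, chosen after seeing the data), the match in the whole peak against transcript ends (9.20) and the orientation with up to 1 mismatch (-7.88). Occupancy against promoters within 100 bp of a center was no longer past it (-6.10). The cause was not tested. No paired analysis was possible because each group was 1 library. Without read numbers, weak and strong peaks cannot be told apart, and binding in the non-induced cells was not analysed here.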
